A study of Mus musculus with 38 samples.

Results

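The 29 genes described here encode enzymes of cholesterol and fatty acid synthesis, together with their main transcriptional regulators. They were taken by name from the gene annotation column of the deposited count files. All 29 were found, each in 1 of the 46078 gene rows, and all 29 passed the filter on low counts in each of the 12 comparisons made. By role they are 3 regulators (Srebf1, Srebf2, Insig1), 6 enzymes of the mevalonate arm (Hmgcs1, Mvk, Pmvk, Mvd, Idi1, Fdps), 11 enzymes from squalene to cholesterol (Fdft1, Sqle, Lss, Cyp51, Tm7sf2, Msmo1, Nsdhl, Hsd17b7, Ebp, Sc5d, Dhcr7), the sterol carrier Stard4, and 8 genes of fatty acid synthesis (Acly, Acss2, Me1, Acaca, Fasn, Elovl6, Scd1, Scd2). The mevalonate and squalene-to-cholesterol enzymes together are called the sterol arm (17 genes).

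RNA was sequenced from isolated intestinal epithelial cells of 38 C57BL/6 mice, before and during colitis caused by dextran sodium sulfate (DSS), a polymer that injures the colon epithelium when given in drinking water. The KO mice (genotype label Hk2dIEC) carried floxed Hk2 and a Cre recombinase driven by the Villin promoter, which is active in intestinal epithelium. The WT mice (genotype label Hk2 flox/flox) were littermates with floxed Hk2 and served as controls, so both genotypes carry the floxed gene. Hk2 encodes hexokinase 2, the enzyme that phosphorylates glucose at the entry to glycolysis. The groups were untreated WT (day 0, n = 4), untreated KO (day 0, n = 5), WT and KO after 3 days of 1.5% DSS (n = 7 and n = 8) and WT and KO after 7 days of 1.5% DSS (n = 7 in each). DSS was given to males aged 10 to 12 weeks. The labels give 9 to 11 or 86 to 92 weeks for basal phenotyping and do not say which of these ages, or which sex, the day 0 mice had. The study's design text speaks of colon tissue and the labels of each sample speak of epithelial cells only. Libraries are named by their titles, which give the day, the genotype and a number that is not shared between libraries; each library was taken as 1 animal.

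Cells make cholesterol from acetyl-CoA through mevalonate, farnesyl diphosphate, squalene and lanosterol, and make fatty acids from the same acetyl-CoA through malonyl-CoA. The membrane-bound transcription factors encoded by Srebf2 and Srebf1 raise these enzymes when sterols are scarce or when insulin signalling is high, and INSIG proteins hold the factors in the endoplasmic reticulum when sterols are plentiful. In the intestine, epithelial turnover uses both pathways for new membrane, and short-chain fatty acids from bacteria are a further source of acetyl-CoA.

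Known response elements for this pathway lie close to the transcription start, so the RefSeq promoter windows (GRCm38.p6, 250 bases before to 50 bases after a start) were searched on both strands for 3 motifs. A window was found for 23 of the 29 members, 29 windows in all. The CCAAT box, letters CCAAT, bound by the factor NF-Y that often works beside sterol regulatory element-binding proteins, was present in 21 of the 23 members (91.3%). Over all 27025 genes with a window the share was 41.06%, and over all 32851 windows 37.41%. Acaca and Elovl6 were the members with a window and no such match. One spelling of the sterol regulatory element, letters TCACNCCAC, was found in 1 member, Hmgcs1 (4.35% of 23), against 1.44% of all genes. Other spellings were not searched, so members without this match can still hold such an element. The E-box, letters CACGTG, was found in 4 members (17.39%; Insig1, Hsd17b7, Sc5d and Dhcr7), against 8.09% of all genes. In the member windows no match of one motif overlapped a match of another. A match is a run of letters, and binding was not measured. Stretches upstream of the start are shown for 5 members. Hmgcs1 holds the TCACNCCAC match, Mvk has 5 CCAAT boxes and Nsdhl rose on both DSS days. Acly, with none in this stretch, fell between days 3 and 7, and Fasn fell between day 0 and both DSS days. They run 5′ to 3′ on the strand of the gene, end at the base before the start and are in lower case with TCACNCCAC and CCAAT matches of either strand (CCAAT reads ATTGG on the other) in capitals. In GRCm38.p6 they are chr13:119690151-119690350 (plus strand, Hmgcs1), chr5:114444069-114444268 (plus, Mvk), chrX:72918412-72918520 (plus, Nsdhl, 109 bases, shorter than the others to stay clear of annotated exons), chr11:100528001-100528200 (minus, Acly) and chr11:120824548-120824747 (minus, Fasn). None overlaps an annotated exon. In Fasn a forward and a reverse CCAAT match overlap. The starts in RefSeq and in the gene models of the count files differ for Hmgcs1, Nsdhl and Fasn.
Hmgcs1 promoter: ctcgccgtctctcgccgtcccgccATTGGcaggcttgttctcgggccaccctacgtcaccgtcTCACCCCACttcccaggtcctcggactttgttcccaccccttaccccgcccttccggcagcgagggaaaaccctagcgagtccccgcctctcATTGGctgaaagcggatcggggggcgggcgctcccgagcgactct
Mvk promoter: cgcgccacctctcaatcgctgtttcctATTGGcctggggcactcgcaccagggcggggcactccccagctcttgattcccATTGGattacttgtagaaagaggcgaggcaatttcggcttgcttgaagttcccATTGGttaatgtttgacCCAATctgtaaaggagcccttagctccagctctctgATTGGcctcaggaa
Nsdhl promoter: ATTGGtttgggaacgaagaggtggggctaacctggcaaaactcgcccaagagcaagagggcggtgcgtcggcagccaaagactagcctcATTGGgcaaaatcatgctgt
Acly promoter: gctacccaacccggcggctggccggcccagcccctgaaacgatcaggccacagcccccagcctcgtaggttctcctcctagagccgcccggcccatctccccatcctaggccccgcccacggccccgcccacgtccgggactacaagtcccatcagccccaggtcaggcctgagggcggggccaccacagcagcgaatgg
Fasn promoter: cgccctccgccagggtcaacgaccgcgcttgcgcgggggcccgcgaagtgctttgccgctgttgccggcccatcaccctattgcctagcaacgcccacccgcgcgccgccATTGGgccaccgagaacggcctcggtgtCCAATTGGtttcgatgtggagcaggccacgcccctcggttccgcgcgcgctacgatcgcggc

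Library depth and cell content set what the member values can show. Total counts were 10.5 to 44.9 M on day 0 and 25.2 to 60.6 M on days 3 and 7. Mitochondrial ribosomal RNA took 6.25% to 45.6% of the counts on day 0 and 0.352% to 3.95% later, and the day 0 libraries carry another library code prefix, so day 0 and library series cannot be told apart. The 45.6% was that of d0_KO_32 alone, and the other day 0 libraries were at 13.8% or below. The targeted gene Hk2 was at 254, 395, 290 and 449 CPM (counts scaled to a common library total, adjusted between libraries by TMM) in the WT day 0 libraries and at 33.1 to 118 CPM in the KO ones. On day 3 the library labelled d3_KO_345 had 435 CPM of Hk2, above all 7 WT libraries of that day (97.0 to 221 CPM), while the other KO libraries had 68.4 to 128 CPM. On day 7 the WT libraries had 228 to 611 CPM and the KO ones 56.1 to 268 CPM, and d7_KO_420, the highest KO library, lay above d7_WT_431. Hk2 was called lower in KO on day 0 (-2.20, adjusted p = 0.0331) and was not called on day 3 (-0.27, adjusted p = 0.802), on day 7 (-1.25, adjusted p = 0.291) or over both days (-0.75, adjusted p = 0.112). Both libraries are kept under their labels. The members called in KO from day 3 to day 7, and those with the smallest p over both days, are also given without d3_KO_345. The 8 epithelial markers summed to 10374 to 20502 CPM per library. Of the 6 adipocyte markers, Lep was at 0 in all 38 libraries, Adipoq in 34, Plin1 and Retn in 28 and Fabp4 in 9, while Cidec, at 2.90 to 36.9 CPM, was at 0 in none.

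Per kilobase of gene model (RPKM), Scd2, a stearoyl-CoA desaturase, was highest by the mean over the 6 groups, with group means of 97.0 to 196 RPKM. The entry enzyme of the mevalonate arm, Hmgcs1, followed at 83.3 to 127 RPKM and in WT day 7 lay above Scd2 (102 against 97.0 RPKM), and ATP citrate lyase, Acly, which cuts cytosolic citrate to acetyl-CoA, at 41.4 to 86.4 RPKM. By the same mean the lowest members were Acaca, acetyl-CoA carboxylase, at 2.10 to 4.26 RPKM, and Me1, the cytosolic malic enzyme that yields NADPH, at 1.65 to 7.82 RPKM. In WT day 7 Me1 was above several others, among them Lss at 7.24 RPKM. Gene model lengths count all annotated exons, so a member with long exons that these cells do not use is placed too low on this scale. The group-mean ranges of Scd2 and Hmgcs1 overlapped, as did those of Hmgcs1 and Acly. Within the Scd family, Scd1 stood at 4.16 to 9.84 RPKM, below Scd2 in each group, and reads of these related genes may be shared between them where their sequences match.

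From day 3 to day 7 of DSS, genes that supply acetyl-CoA and desaturate fatty acids fell in both genotypes, and few genes of the sterol arm passed the test. Acly, Acss2, Scd1, Scd2 and Tm7sf2 were lower on day 7 than on day 3 in WT and in KO mice, by 0.45 to 1.13 on the log2 scale. The WT calls of Scd1 and Scd2 were lost in most fits that left out 1 library (given below). In WT, 7 of 29 members passed an adjusted p of 0.05 (edgeR quasi-likelihood test, Benjamini-Hochberg over all genes tested), 1 higher and 6 lower, where 19.3% of all 15541 genes tested passed (10.6% higher, 8.7% lower). In KO, 6 members passed, all lower, where 19.3% of 15568 genes passed (10.5% higher, 8.83% lower). As shares of the 29, both totals lie near the share of all genes, and the lower calls lie above the share of genes called lower. How many of all genes were called lower in both genotypes was not counted. The median log2 fold change over the 8 fatty acid genes was -0.39 in WT and -0.40 in KO, against 0.01 and -0.01 over all genes tested. Over the 17 sterol-arm genes the median was 0.12 in WT and -0.18 in KO. These are bulk samples, in which fewer cells of a type and less RNA per cell cannot be told apart.

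**Figure D1:**
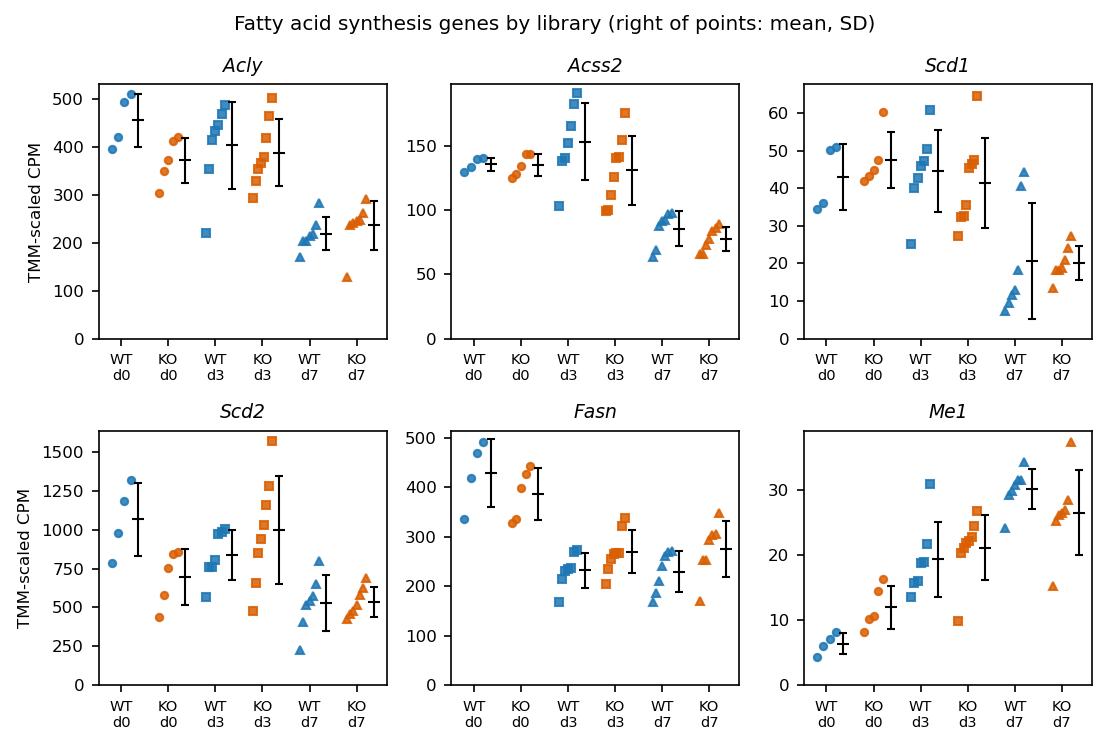
TMM-scaled CPM of 6 fatty acid synthesis genes in each of 38 libraries, by genotype (WT blue, KO orange) and day (circles day 0, squares day 3, triangles day 7), with the group mean and SD at the right of the points. Acly and Acss2 sit lower on day 7 than on day 3 in both genotypes, Fasn is lower on both DSS days than on day 0, and Me1 is lowest in WT day 0.

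Acly (ENSMUSG00000020917, chr11:100476353-100528000, GRCm38, minus strand) was measured at 220 CPM at the lowest, 433 at the median and 487.3 at the highest in WT on day 3, and at 171, 215 and 282 CPM on day 7. The groups overlapped through d3_WT_381 alone, since the other 6 WT day 3 libraries were at 355 CPM or above. In KO, Acly was at 295, 373 and 502 CPM on day 3 and at 129, 246 and 291 CPM on day 7, with no overlap. The log2 fold change was -0.90 (SE 0.16, adjusted p = 0.000998) in WT and -0.75 (SE 0.15, adjusted p = 0.0022) in KO. Acss2 (ENSMUSG00000027605, chr2:155517948-155585724, plus strand) encodes the cytosolic enzyme that makes acetyl-CoA from acetate. Its lowest, median and highest values were 103, 152 and 191 CPM in WT on day 3 and 63.5, 91.7 and 97.5 CPM on day 7. In KO they were 98.9, 133 and 175 CPM on day 3 and 65.8, 77.5 and 88.7 CPM on day 7. Day 7 lay below day 3 without overlap in both genotypes, with log2 fold changes of -0.86 (SE 0.14, adjusted p = 0.000582) in WT and -0.80 (SE 0.13, adjusted p = 0.000314) in KO. Acss2 shares parts of its span with several genes on the other strand, among them Ggt7, Gss and Acss2os, and the counting ignored strand. Mipep-ps and Gm20637 overlap it on its own strand.

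The desaturases Scd1 (ENSMUSG00000037071, chr19:44394451-44407709, minus strand) and Scd2 (ENSMUSG00000025203, chr19:44293676-44306864, plus strand) place a double bond in stearic and palmitic acid. In KO, Scd1 was at 27.5, 40.5 and 64.7 CPM (lowest, median, highest) on day 3 and at 13.5, 18.8 and 27.3 CPM on day 7, a change of -1.08 (SE 0.18, adjusted p = 0.000527) with no overlap. In WT it was at 25.1, 46.01 and 61.0 CPM on day 3 and at 7.29, 12.8 and 44.5 CPM on day 7. The 5 lowest WT day 7 libraries were at 18.4 CPM or below, and d7_WT_370 (40.6 CPM) and d7_WT_386 (44.5 CPM) lay within the day 3 range. The WT change was -1.13 (SE 0.38, adjusted p = 0.0460). It passed in 3 of 14 fits that each left out 1 library, those without d3_WT_381, d7_WT_370 or d7_WT_386, and the adjusted p over the 14 ranged from 0.00845 to 0.0894. Scd2 was at 475, 986 and 1569 CPM in KO on day 3 and at 425, 517 and 690 CPM on day 7 (-0.92, SE 0.21, adjusted p = 0.00476). In WT it was at 570, 808 and 1008 CPM on day 3 and at 225, 538 and 799 CPM on day 7. Both pairs of groups overlapped. The WT change of -0.68 (SE 0.22, adjusted p = 0.0402) passed in 4 of 14 such fits, those without d3_WT_381, d7_WT_386, d7_WT_419 or d7_WT_431, with adjusted p from 0.0112 to 0.0812.

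Me1 went the other way. In WT it was at 13.4, 18.7 and 30.9 CPM on day 3 and at 24.1, 30.6 and 34.2 CPM on day 7, a rise of 0.63 (SE 0.15, adjusted p = 0.0102). The groups overlapped through d3_WT_381, the highest day 3 library. In KO the values were 9.87, 21.9 and 26.7 CPM on day 3 and 15.2, 26.4 and 37.3 CPM on day 7, and the change of 0.29 (SE 0.18, adjusted p = 0.315) did not pass. The 3 remaining fatty acid genes did not pass in either genotype. Their changes were -0.10 in WT and -0.04 in KO for Acaca, -0.04 and -0.01 for fatty acid synthase (Fasn), and 0.21 and 0.22 for the elongase Elovl6.

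In the sterol arm, Tm7sf2, a sterol reductase acting after lanosterol demethylation, fell by 0.45 in WT (SE 0.12, adjusted p = 0.0127) and by 0.45 in KO (SE 0.07, adjusted p = 0.000333). It was at 23.3, 25.4 and 28.1 CPM in WT on day 3 and at 14.1, 20.2 and 23.8 CPM on day 7, and at 20.9, 24.4 and 28.8 CPM in KO on day 3 and 17.1, 18.4 and 19.3 CPM on day 7. The KO groups did not overlap, and the WT groups overlapped through d7_WT_386. Tm7sf2 shares part of its span with Vps51 on the same strand. Dhcr7, the last enzyme of cholesterol synthesis, fell in WT by 0.39 (SE 0.11, adjusted p = 0.0206), from 89.6, 115 and 123 CPM to 64.8, 82.2 and 98.5 CPM. In KO it was at 95.2, 109 and 161 CPM and then at 87.3, 98.3 and 110 CPM (-0.28, SE 0.10, adjusted p = 0.0575, not called). None of the other 15 sterol-arm genes passed in either genotype. Of the 17, 14 had a positive fold change in WT and 2 in KO, and no member passed the test of that difference (the interaction given with the KO comparison). Over all genes tested, 8044 of 15541 were positive in WT and 7582 of 15568 in KO. The regulator Srebf1 fell in KO by 0.33 (SE 0.11, adjusted p = 0.0388), from 74.6, 105 and 125 CPM to 73.9, 82.0 and 99.7 CPM, with overlap. That call held in 5 of 15 fits that each left out 1 library, those without d3_KO_345, d3_KO_387, d3_KO_388, d7_KO_420 or d7_KO_421, with adjusted p from 0.0100 to 0.0841, and was lost with no filter on low counts (0.0501). In WT its change was -0.18 (adjusted p = 0.128). Without d3_KO_345 the same 6 members passed in KO, Scd1 with a change of -1.06 and Acss2 with -0.85.

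**Figure D2:**
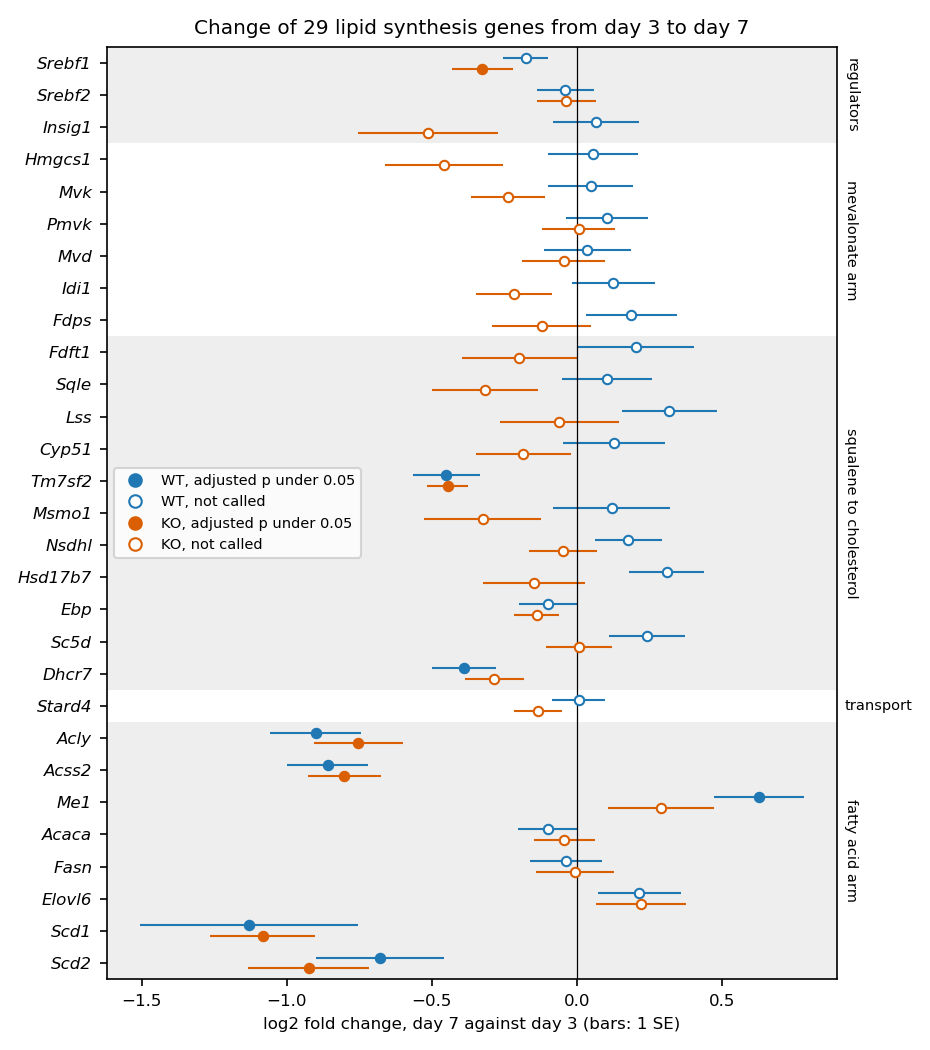
Log2 fold change of each of the 29 members on day 7 against day 3 (horizontal axis, bars 1 SE) by role, in WT (blue) and KO (orange), with filled points for an adjusted p under 0.05. Acly, Acss2, Scd1, Scd2 and Tm7sf2 are filled in both genotypes, between -0.45 and -1.13, and Me1 is filled on the higher side in WT.

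Other genes of lipid handling were read from lists. Of 13 genes of sterol efflux and storage, 12 were tested, and 1 rose and 2 fell in each genotype. Soat2, an acyl-CoA:cholesterol acyltransferase of enterocytes, rose by 1.44 (SE 0.25) in WT and 1.04 (SE 0.22) in KO. Its relative Soat1 fell by 0.96 (SE 0.14) and 0.93 (SE 0.11), and the lysosomal sterol carrier Npc2 fell by 0.43 (SE 0.13) and 0.38 (SE 0.09). Of 18 other fatty acid and glyceride genes, 17 were tested, with 4 higher and 2 lower in WT and 3 higher and 4 lower in KO. Dgat2, which completes triglyceride synthesis, rose by 1.27 (SE 0.20) in WT and 0.87 (SE 0.28) in KO, and Agpat2 rose by 0.80 (SE 0.15) in WT. Acacb, the mitochondrial acetyl-CoA carboxylase, rose by 0.85 (SE 0.13) in KO. Fads2, a polyunsaturated fatty acid desaturase, fell by 1.05 (SE 0.20) in WT and 0.83 (SE 0.20) in KO. Mlxipl, a carbohydrate-responsive transcription factor, fell by 0.66 (SE 0.20) in WT, and Gpam, which starts glycerolipid synthesis, by 0.68 (SE 0.17) in KO. Among 4 other sources of NADPH, 3 rose in WT and 2 in KO. Isocitrate dehydrogenase Idh1 rose by 0.51 (SE 0.09) in WT and 0.48 (SE 0.09) in KO, and Pgd of the pentose phosphate path by 0.50 (SE 0.10) and 0.37 (SE 0.09). Of 11 further sterol synthesis and control genes, 2 rose in each genotype and none fell. Insig2 rose by 0.39 (SE 0.09) in WT and 0.34 (SE 0.09) in KO, Mbtps2, a protease that releases the SREBP factors, by 0.36 (SE 0.10) in WT, and Ggps1 by 0.17 (SE 0.06) in KO.

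Immune cell markers rose with the same days. The 10 markers summed to 11.7 to 46.2 CPM in WT on day 3 and 125 to 908 CPM on day 7, and to 30.3 to 98.0 CPM in KO on day 3 and 98.7 to 1467 CPM on day 7. Of the 10, 9 rose in WT and 10 in KO. The defining marker Ptprc was at 3.46 to 22.1 CPM in WT on day 3 and 13.1 to 90.4 CPM on day 7. The T cell marker Cd3e stayed at or below 8.59 CPM in WT and 6.85 CPM in KO on day 7, and the granulocyte genes S100a8 and S100a9 reached 513 and 714 CPM in d7_KO_420. The epithelial marker sums were 12128 to 20502 CPM on day 3 and 13763 to 19031 CPM on day 7 in WT, with no marker of 8 passing there and 1 lower in KO. Of 6 colonocyte markers, 1 rose and 1 fell in WT and 3 fell in KO (median -0.58). In WT 1 of 6 tested small intestine markers, 1 of 8 stromal markers and Cidec, the 1 adipocyte marker tested, also rose, and none of these passed in KO. Of 6 proliferation markers none passed. The part of other cells in the member changes was not tested.

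Against day 0, members moved in both directions, with Srebf2, Nsdhl, Dhcr7, Stard4 and Me1 higher and Insig1, Acaca and Fasn lower on both DSS days in both genotypes. On day 3, 9 of 29 members passed in WT, 5 higher and 4 lower, where 46% of 17152 genes passed (20.4% higher, 25.6% lower). In KO 8 members passed, 5 higher and 3 lower, where 46.3% of 16010 genes passed (22.6% higher, 23.7% lower). On day 7, 15 passed in WT, 5 higher and 10 lower, against 56.9% of 17428 genes (27.8% higher, 29.2% lower). In KO 16 passed, 5 higher and 11 lower, against 54.6% of 16367 genes (27.3% higher, 27.3% lower). Called in the same direction in both genotypes were 8 members on day 3 and 14 on day 7. The same count over all genes was not made, so these 2 counts have no share to be set against. As shares of the 29, the counts lie below the shares of all genes on day 3 and near them on day 7. Day 0 cannot be told apart from the library series, and the labels do not say which age or sex the day 0 mice had. Rises and falls against day 0 are therefore differences between groups that may also differ in age and sex. The part of library series, age and sex in these differences was not tested. The day 3 and day 7 comparisons share the day 0 libraries. Markers of cell types also differed from day 0. Of 6 colonocyte markers, 1 rose and 4 fell in WT on each DSS day, and in KO 1 rose with 1 lower on day 3 and 2 lower on day 7. Of 6 proliferation markers, 2 fell in WT and 3 in KO on day 3, and on day 7 1 rose and 2 fell in WT and 4 fell in KO. Of 8 epithelial markers, 1 rose in WT and 3 in KO on day 3, and 3 and 5 on day 7. Of the immune markers, 3 of 8 tested rose and 1 fell in WT and 3 of 7 tested rose in KO on day 3, and 8 of 10 rose in WT and 10 in KO on day 7. Of the stromal markers, 2 of 8 rose and 1 fell in WT and 1 fell in KO on day 3, and on day 7 5 rose and 1 fell in WT and 3 of 7 tested rose in KO. Of 7 small intestine markers tested, 1 fell in WT and 4 in KO on day 3, and on day 7 2 rose and 1 fell in WT and 1 rose and 3 fell in KO. Cidec rose in WT on day 7. The part of these cells in the member changes was not tested.

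**Figure D3:**
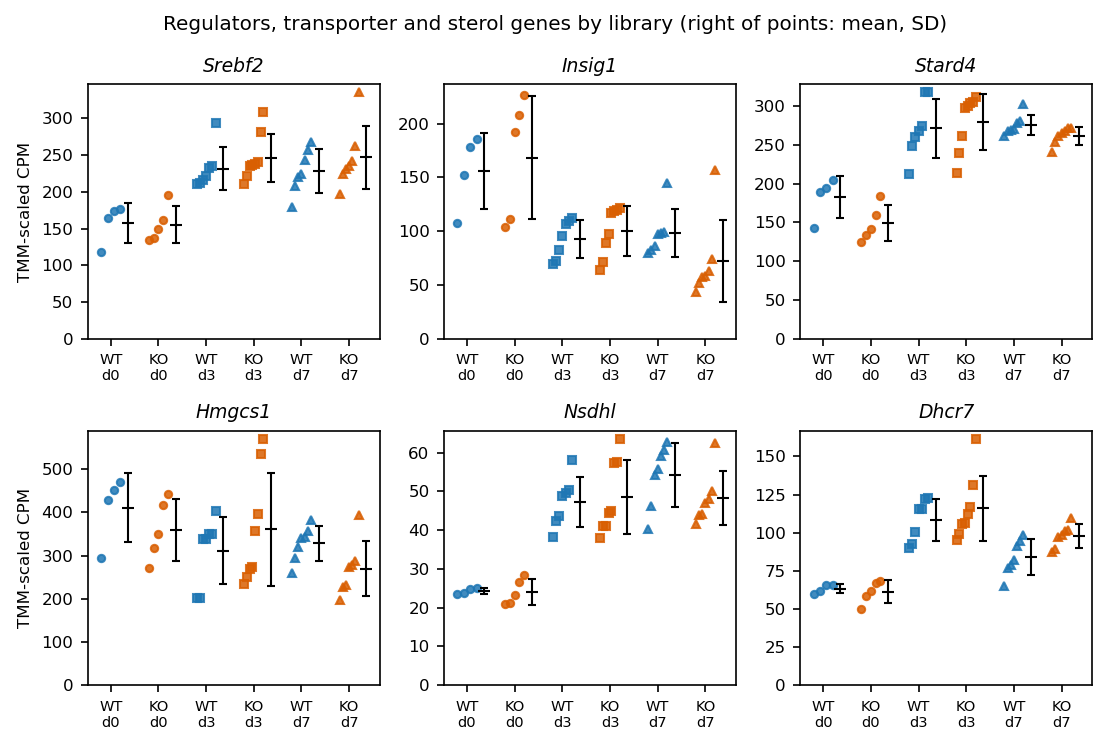
TMM-scaled CPM of Srebf2, Insig1, the sterol carrier Stard4 and 3 sterol-arm genes in each of 38 libraries, by genotype (WT blue, KO orange) and day (circles day 0, squares day 3, triangles day 7), with the group mean and SD at the right of the points. Srebf2, Stard4, Nsdhl and Dhcr7 are lowest on day 0 and Insig1 is highest there.

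The regulators split. Srebf2, the main activator of sterol genes, was at 118, 164, 173 and 177 CPM in WT and 134, 136, 149, 161 and 196 CPM in KO on day 0. On day 3 its lowest, median and highest values were 211, 221 and 294 CPM in WT and 211, 237 and 309 CPM in KO. Day 3 lay above day 0 without overlap in both genotypes, with changes of 0.54 (SE 0.13, adjusted p = 0.00431) and 0.68 (SE 0.11, adjusted p = 0.000135). On day 7 Srebf2 stayed higher than on day 0 by 0.50 (SE 0.14, adjusted p = 0.00787) in WT and 0.64 (SE 0.13, adjusted p = 0.000812) in KO. Insig1, itself a target of the SREBP factors, was at 108, 152, 178 and 186 CPM in WT on day 0 and at 104, 111, 193, 208 and 227 CPM in KO. It was lower on day 3, at 69.3, 95.9 and 112 CPM in WT and 63.6, 107 and 122 CPM in KO, with changes of -0.77 (SE 0.17, adjusted p = 0.0022) and -0.75 (SE 0.21, adjusted p = 0.00828). On day 7 the changes were -0.70 (SE 0.17, adjusted p = 0.00428) in WT and -1.25 (SE 0.30, adjusted p = 0.00305) in KO. All 4 Insig1 comparisons overlapped. The highest KO day 7 library was d7_KO_420 at 157 CPM, where the other 6 were at 43.4 to 74.2 CPM. Srebf1, the main activator of fatty acid genes, was at 111, 128, 139 and 143 CPM in WT on day 0, above all 7 libraries of day 3 (86.1 to 106 CPM) and of day 7 (72.0 to 99.6 CPM). Its changes were -0.47 (SE 0.09, adjusted p = 0.00112) on day 3 and -0.64 (SE 0.10, adjusted p = 0.000164) on day 7 in WT. In KO they were -0.22 (adjusted p = 0.155, not called) and -0.54 (SE 0.10, adjusted p = 0.000531). Srebf1 shares its span with Rai1 on the other strand.

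Among sterol enzymes, Nsdhl, a dehydrogenase that helps to strip methyl groups from the sterol ring, showed the largest rise of its arm. It was at 23.5, 23.8, 24.7 and 25.2 CPM in WT and 20.9, 21.1, 23.1, 26.6 and 28.4 CPM in KO on day 0. On day 3 it was at 38.2, 48.7 and 58.1 CPM in WT and 37.9, 44.6 and 63.4 CPM in KO, and on day 7 at 40.2, 55.7 and 62.8 CPM and 41.5, 47.1 and 62.6 CPM. No DSS library of either genotype overlapped day 0. The changes in WT were 0.95 (SE 0.11, adjusted p = 1.48e-05) on day 3 and 1.13 (SE 0.12, adjusted p = 7.36e-06) on day 7. In KO they were 1.02 (SE 0.14, adjusted p = 2.16e-05) and 0.98 (SE 0.11, adjusted p = 8.72e-06). Dhcr7 was at 59.7, 61.5, 65.4 and 65.7 CPM in WT and 49.6, 58.3, 61.9, 67.0 and 68.5 CPM in KO on day 0. Its rises in WT were 0.77 (SE 0.11, adjusted p = 6.77e-05) on day 3, with no overlap, and 0.38 (SE 0.11, adjusted p = 0.0118) on day 7, with overlap. In KO they were 0.94 (SE 0.13, adjusted p = 1.95e-05) and 0.66 (SE 0.09, adjusted p = 4.40e-05), both without overlap. Tm7sf2 was at 24.7, 26.7, 27.02 and 27.1 CPM in WT and at 23.6, 27.3, 27.8, 28.5 and 32.3 CPM in KO on day 0. It was lower on day 7, below all day 0 libraries in both genotypes, by 0.50 (SE 0.14, adjusted p = 0.00698) in WT and 0.64 (SE 0.08, adjusted p = 1.67e-05) in KO. On day 3 its changes were -0.05 in WT and -0.20 in KO, neither called. The other 8 genes from squalene to cholesterol passed in none of the 4 comparisons with day 0.

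In the mevalonate arm no member passed on day 3. On day 7 Hmgcs1 was lower than on day 0 by 0.35 (SE 0.14, adjusted p = 0.0479) in WT and 0.44 (SE 0.16, adjusted p = 0.0343) in KO. It was at 294, 429, 452 and 469 CPM in WT day 0 and 271, 316, 348.9, 417 and 442 CPM in KO day 0, against 259, 341 and 383 CPM and 197, 273 and 394 CPM on day 7, with overlap in both. The WT call held in 3 of 11 fits that each left out 1 library (without d0_WT_31, d7_WT_393 or d7_WT_431; adjusted p 0.00622 to 0.148 over the 11). The KO call held in 6 of 12 (lost without d0_KO_53, d0_KO_54, d0_KO_60, d7_KO_367, d7_KO_368 or d7_KO_422; adjusted p 0.00315 to 0.106). In KO, mevalonate kinase (Mvk) was lower by 0.35 (SE 0.11, adjusted p = 0.0191), and farnesyl diphosphate synthase (Fdps) by 0.41 (SE 0.16, adjusted p = 0.0440). Mvk was at 26.5, 28.8, 30.0, 30.7 and 34.7 CPM on day 0 and 17.8, 23.1 and 30.0 CPM on day 7, and Fdps at 23.6, 30.0, 32.05, 34.8 and 36.4 CPM and 16.95, 23.6 and 35.7 CPM. Both overlapped. The Mvk call was lost without d0_KO_54 (-0.29, adjusted p = 0.0630), and the Fdps call held in 2 of 12 such fits (those without d0_KO_24 or d7_KO_420; adjusted p 0.00256 to 0.116). With no filter on low counts, or with all 38 libraries in 1 fit, the Hmgcs1, Mvk and Fdps calls were lost, with adjusted p from 0.0545 to 0.188.

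Stard4, a soluble carrier that moves cholesterol between membranes, was at 143, 189, 194 and 205 CPM in WT and 125, 134, 142, 160 and 184 CPM in KO on day 0. On day 3 it was at 212, 269 and 318 CPM in WT and 213, 299 and 312 CPM in KO, and on day 7 at 261, 271 and 302 CPM and 240, 266 and 272 CPM. All DSS libraries lay above all day 0 libraries of their genotype. The rises were 0.56 (SE 0.13, adjusted p = 0.00374) and 0.56 (SE 0.11, adjusted p = 0.00074) in WT on days 3 and 7, and 0.92 (SE 0.12, adjusted p = 1.07e-05) and 0.79 (SE 0.09, adjusted p = 8.33e-06) in KO.

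In the fatty acid arm, Acaca and Fasn, the enzyme that makes malonyl-CoA and the one that builds palmitate from it, were lower on both DSS days. Acaca was at 53.5, 77.6, 80.0 and 80.1 CPM in WT and 55.1, 56.8, 61.1, 64.8 and 83.5 CPM in KO on day 0, and at 32.3 to 43.6 CPM and 36.8 to 50.2 CPM on day 3. No DSS library overlapped day 0 in either genotype. The changes on days 3 and 7 were -0.96 (SE 0.13, adjusted p = 3.36e-05) and -1.06 (SE 0.13, adjusted p = 2.46e-05) in WT, and -0.60 (SE 0.10, adjusted p = 0.000117) and -0.64 (SE 0.14, adjusted p = 0.00128) in KO. Fasn was at 336, 418, 468 and 490 CPM in WT and 327, 336, 399, 427 and 442 CPM in KO on day 0. Its medians on days 3 and 7 were 234 and 240 CPM in WT and 266 and 294 CPM in KO, with no overlap in WT and overlap in KO. The changes were -0.90 (SE 0.14, adjusted p = 0.000113) and -0.93 (SE 0.15, adjusted p = 0.0002) in WT and -0.51 (SE 0.12, adjusted p = 0.00227) and -0.51 (SE 0.15, adjusted p = 0.0101) in KO.

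Me1 was at 4.30, 5.94, 6.99 and 8.21 CPM in WT and 8.09, 10.1, 10.6, 14.4 and 16.3 CPM in KO on day 0. It rose by 1.57 (SE 0.24, adjusted p = 0.000104) on day 3 and 2.20 (SE 0.17, adjusted p = 3.50e-07) on day 7 in WT, without overlap. In KO it rose by 0.83 (SE 0.21, adjusted p = 0.00496) and 1.13 (SE 0.21, adjusted p = 0.000472), with overlap. Pgd and G6pdx, the NADPH sources of the pentose phosphate path, also rose, by 1.15 (SE 0.12) and 0.59 (SE 0.09) in WT and by 1.23 (SE 0.11) and 0.73 (SE 0.09) in KO on day 3. On day 7 the NADPH list had 4 of 4 genes higher in WT and 3 of 4 in KO.

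Acly, Acss2 and Scd1 were not called on day 3 and were lower on day 7. Acly was at 397, 421.2, 495 and 511 CPM in WT and 305, 350, 373, 413 and 420 CPM in KO on day 0, above all day 7 libraries, and fell by 1.09 (SE 0.13, adjusted p = 1.45e-05) in WT and 0.68 (SE 0.16, adjusted p = 0.00279) in KO. Acss2 was at 130, 133, 140 and 140 CPM in WT and 125, 128, 134, 143 and 144 CPM in KO on day 0. It fell on day 7 by 0.70 (SE 0.12, adjusted p = 0.000327) and 0.83 (SE 0.09, adjusted p = 4.37e-06), without overlap. Scd1 was at 34.5, 36.2, 50.3 and 51.0 CPM in WT and 41.9, 43.3, 45.0, 47.5 and 60.3 CPM in KO on day 0. Its fall in KO on day 7 was 1.26 (SE 0.15, adjusted p = 1.29e-05), without overlap. In WT the change of -1.09 (SE 0.44, adjusted p = 0.0479) held in 2 of 11 fits that each left out 1 library, those without d7_WT_370 or d7_WT_386 (adjusted p 0.0116 to 0.117), and was lost with the DESeq2 Wald test (0.0605). Scd2 was at 787, 980, 1185 and 1324 CPM in WT on day 0 and fell on day 7 by 1.05 (SE 0.26, adjusted p = 0.00416), with d7_WT_386 (799 CPM) overlapping. In KO it was at 439, 578, 756, 847 and 859 CPM on day 0, and its change of -0.39 (SE 0.17, adjusted p = 0.0700) did not pass. Elovl6 passed in none of these comparisons.

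The same lists were counted against day 0. Of the 11 further sterol synthesis and control genes, 2 rose and 1 fell in WT and 3 rose and 1 fell in KO on day 3. On day 7, 2 rose and none fell in WT, and 2 rose and 2 fell in KO. Insig2 was higher by 0.53 (SE 0.12) in WT and 0.44 (SE 0.10) in KO on day 3 and by 0.92 (SE 0.10) and 0.79 (SE 0.10) on day 7. Mbtps2 was higher by 0.79 (SE 0.13) in WT and 0.85 (SE 0.11) in KO on day 7. Scap, the escort of the SREBP factors, was lower on day 3 by 0.25 (SE 0.08) in WT and 0.26 (SE 0.05) in KO. Of the tested efflux and storage genes, 3 rose and 4 fell in WT and 1 rose and 2 fell in KO on day 3, and 3 rose and 3 fell in WT and 0 rose and 3 fell in KO on day 7. The sterol exporter Abcg1 was lower in WT by 1.74 (SE 0.29) on day 3 and 1.12 (SE 0.33) on day 7. Soat1 was lower on day 7 by 1.70 (SE 0.16) in WT and 1.76 (SE 0.15) in KO, and Soat2 was higher by 1.93 (SE 0.34) in WT. Of the tested fatty acid and glyceride genes, 5 rose and 3 fell in WT and 5 rose and 4 fell in KO on day 3, and 9 rose and 3 fell in WT and 7 rose and 4 fell in KO on day 7. Elovl1, an elongase of long saturated chains, was higher on day 3 by 0.85 (SE 0.12) in WT and 0.93 (SE 0.15) in KO, and lipoprotein lipase (Lpl) by 1.32 (SE 0.18) and 0.73 (SE 0.15). Cd36, a fatty acid transporter, rose on day 7 in both genotypes from few or no reads on day 0, so no fold is given. Dgat2 was higher on day 7 by 1.53 (SE 0.17) in WT and 1.52 (SE 0.18) in KO. Gpam was lower on day 7 by 1.13 (SE 0.19) in WT and 1.55 (SE 0.15) in KO, and the phosphatidate phosphatase Lpin1 by 0.76 (SE 0.21) and 1.03 (SE 0.23).

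The study compared KO with WT to read the effect of Hk2 loss in the epithelium, and no member passed in that comparison. The number called was 0 of 29 on day 0, where 0.0335% of 14944 genes passed, 0 on day 3 (0.00647% of 15461 genes), 0 on day 7 (0.00642% of 15584 genes) and 0 over days 3 and 7 together with day in the model (0.0122% of 16371 genes). At an unadjusted p under 0.05 there were 4, 0, 4 and 5 members, where 10.5%, 7.88%, 12.9% and 21.5% of all genes had such a p. The DESeq2 Wald test called 1 member on day 0, Me1, and none on the other days. Fold changes over the 29 ran from -0.63 (Scd2) to 0.87 (Me1) on day 0, from -0.22 (Acss2) to 0.31 (Elovl6) on day 3 and from -0.45 (Insig1) to 0.34 (Elovl6) on day 7. The median was -0.04 on day 0, 0.10 on day 3 and -0.11 on day 7, against -0.0030, -0.0045 and -0.0048 over all genes. The KO day 3 values include the library labelled d3_KO_345, and without it 0 members passed on day 3 too.

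**Figure D4:**
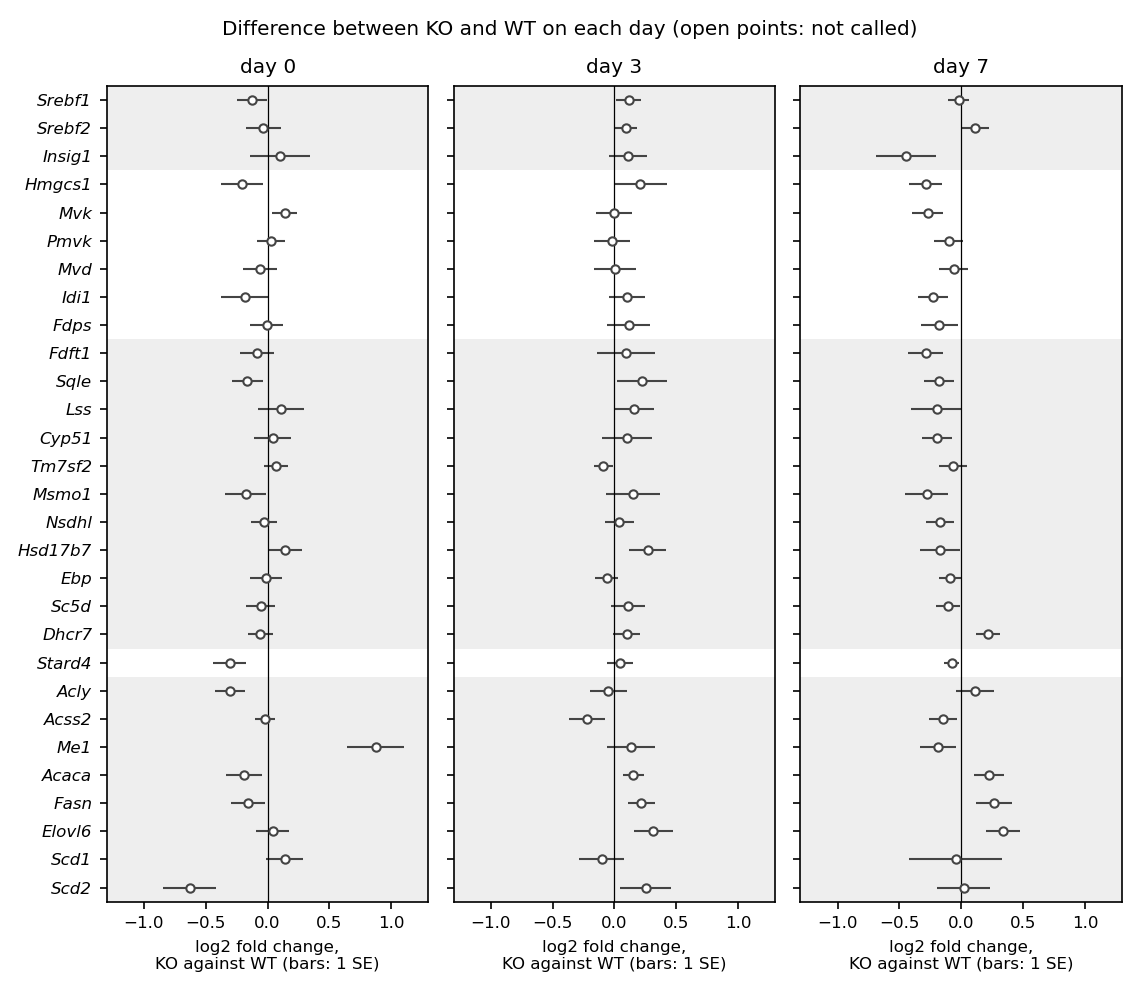
Log2 fold change of KO against WT for each of the 29 members (bars 1 SE) on days 0, 3 and 7, ordered by role. All points are open because none passed an adjusted p of 0.05; Me1 at 0.87 and Scd2 at -0.63 on day 0 lie farthest from 0.

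On day 0 the 3 members with the smallest p were Me1, Scd2 and Acly, all of the fatty acid arm. Me1 was higher in KO by 0.87 (SE 0.23, adjusted p = 0.249), with 4 of 5 KO libraries above the highest WT value of 8.21 CPM and the lowest KO library at 8.09 CPM. The DESeq2 Wald test gave Me1 an adjusted p of 0.0337. Scd2 was lower by 0.63 (SE 0.21, adjusted p = 0.368) and Acly by 0.30 (SE 0.12, adjusted p = 0.424), both with overlap. Small intestine and stromal markers moved with the same groups. Of 9 small intestine markers 5 were tested, and all 5 were higher in KO (median 2.53, none called, 3 at an unadjusted p under 0.05). Markers with few reads in WT can pass the filter on low counts through the KO libraries alone, so the direction of such markers is partly set by the filter. Fabp6 was at 3.06 CPM or above in the KO libraries and at 2.60 CPM or below in the WT ones. Slc5a1, the most abundant marker of the list, was at 133 to 164 CPM in WT and 143 to 159 CPM in KO. The 5 tested stromal markers had a median of 1.05, none called. Library d0_KO_60 held the most Fabp6 (43.2 CPM) and Apoa1 (75.0 CPM), and it was the lowest KO library for Scd2 (439 CPM). Leaving it out moved the Scd2 difference to -0.50. The part of these cells in the member differences was not tested.

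On day 3 the smallest p were those of Elovl6, higher in KO by 0.31 (SE 0.16, adjusted p = 0.623), Fasn by 0.22 (SE 0.11, adjusted p = 0.623) and Acaca by 0.15 (SE 0.08, adjusted p = 0.631). On day 7 they were those of Elovl6, higher by 0.34 (SE 0.14, adjusted p = 0.350), Dhcr7, higher by 0.22 (SE 0.10, adjusted p = 0.369), and Mvk, lower by 0.27 (SE 0.12, adjusted p = 0.376). Elovl6, which lengthens palmitate to stearate, was at 62.4, 81.7 and 113 CPM in WT and 61.6, 113 and 134 CPM in KO on day 3, and at 69.4, 102 and 120 CPM and 82.0, 135 and 151 CPM on day 7. The ranges overlapped on both days. Elovl6 shares its span with an unnamed gene on the other strand and with another on its own strand. Over both days Elovl6 was higher in KO by 0.32 (SE 0.11, adjusted p = 0.114), Fasn by 0.23 (SE 0.09, adjusted p = 0.153) and Acaca by 0.18 (SE 0.07, adjusted p = 0.159). Without d3_KO_345 alone, Elovl6 (0.30, adjusted p = 0.155), Fasn (0.22, adjusted p = 0.204) and Acaca (0.18, adjusted p = 0.189) did not pass either. Without d7_KO_420, the lowest KO day 7 library for all 3, Elovl6 (0.36, adjusted p = 0.0498) and Acaca (0.22, adjusted p = 0.0471) passed. With d3_KO_345 left out as well, 0 members passed. On day 7, 16 of 17 sterol-arm genes had a negative difference, all except Dhcr7, and on day 3, 13 of 17 had a positive one, and none passed. Over all genes tested, 7932 of 15584 were negative on day 7 and 7568 of 15461 positive on day 3. In each group 1 or 2 libraries held the extremes for most of these genes (given below), so the counts are not 17 separate signs.

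The change from day 3 to day 7 did not differ between genotypes by a test of the interaction for any member (0 of 29, with 0% of 16371 genes called and 440 genes, 2.69%, at an unadjusted p under 0.05, none of them a member). The smallest p were those of Hsd17b7, a ketosteroid reductase (-0.44, SE 0.23), Insig1 (-0.56, SE 0.30) and Hmgcs1 (-0.49, SE 0.26), each with an adjusted p of 1.00. For day 7 against day 0, 0 members passed (0.00531% of 18830 genes) and 5 had an unadjusted p under 0.05, where 13.5% of all genes did. The interaction for Me1 was -1.03 (SE 0.27, adjusted p = 0.172), a smaller rise in KO that did not pass. It passed without d7_KO_420 (-1.16, adjusted p = 0.0350) and with the DESeq2 Wald test (0.0392). Acaca (0.45, SE 0.20, adjusted p = 0.331) and Dhcr7 (0.31, SE 0.15, adjusted p = 0.357) came next.

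Libraries of 1 group differed widely in the sterol arm, and in each group 1 or 2 libraries held the highest or lowest value of most of its genes. In WT day 3, d3_WT_381 held the highest value for 13 of the 17 sterol-arm genes and d3_WT_353 the lowest for 14. In KO day 3, d3_KO_345 was highest for 10 and d3_KO_385 for 6, and d3_KO_351 was lowest for 9. In KO day 7, d7_KO_420 was highest for 11, and in WT day 7, d7_WT_386 for 10. On day 0, d0_KO_24 was lowest for 15 and d0_WT_31 for 13. Summed over the arm, levels ran from 945 to 1809 CPM in WT day 3 and from 1110 to 2204 CPM in KO day 3, wider than the difference between the medians of those groups (1479 and 1316 CPM). Squalene synthase (Fdft1) was at 52.7, 112 and 147 CPM in WT day 3 and at 73.3, 90.9 and 167 CPM in KO day 3, and lanosterol demethylase (Cyp51) at 91.1, 157 and 226 CPM and 105, 138 and 248 CPM. The highest library exceeded the lowest by 2.78 times for Fdft1 in WT day 3 and by 2.77 times for the methylsterol oxidase Msmo1 in KO day 3. For Sqle, the squalene epoxidase, and Idi1, an isomerase of the mevalonate arm, the same ratios in KO day 3 were 2.35 and 2.07. Those of Lss, which closes the sterol rings, Mvd and Pmvk, both of the mevalonate arm, and Sc5d, a late desaturase, were 2.10, 2.08, 1.72 and 1.83. Ebp, a sterol isomerase, was steadier, at 1.34.

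The fatty acid genes went with the sterol arm in some of these libraries and not in others. d0_WT_31 was lowest for 6 of 8 fatty acid genes and d0_KO_24 for 4 of 8, as for the sterol arm. d7_WT_386 had the highest fatty acid sum of its group (1511 CPM), of which Scd2 alone made 799 CPM. That library was highest for 2 of the 8 genes and lowest for 1, Fasn. d3_WT_381, high in the sterol arm, was lowest for 6 of 8 fatty acid genes and highest for 2, Me1 and Elovl6, and d7_KO_420 was lowest for 5 of 8 and highest for Me1. d3_KO_385 was highest for 4 of 8, and its summed level of 2772 CPM, 1569 CPM of it from Scd2, was the highest of its group. d3_WT_381 also had the highest colonocyte marker sum of its group (11489 CPM, where the group median was 5915), and d7_KO_420 the highest colonocyte (12649 CPM) and immune (1467 CPM) sums and the lowest proliferation sum (143 CPM) of its group. d3_KO_385 had a colonocyte sum of 10630 CPM. Most of this sum is 1 gene, Car1, which reached 11666 CPM in KO day 7, where no other marker of the 6 exceeded 449 CPM. In WT day 3 no marker of the 6 other than Car1 exceeded 648 CPM. The colonocyte sum therefore follows Car1 and is not a measure of colonocyte content. d3_WT_381 also had the highest share of counts from the mitochondrial genome (41.7%), the fewest counts (26.7 M) and the fewest detected genes (19084) of its group. d7_WT_386 was alike in its own group (26.6%, 25.2 M counts, 19831 genes). d7_KO_420 had neither the fewest counts nor the fewest detected genes of its group. The part of cell content, mitochondrial share and depth in the member levels was not tested.

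**Figure D5:**
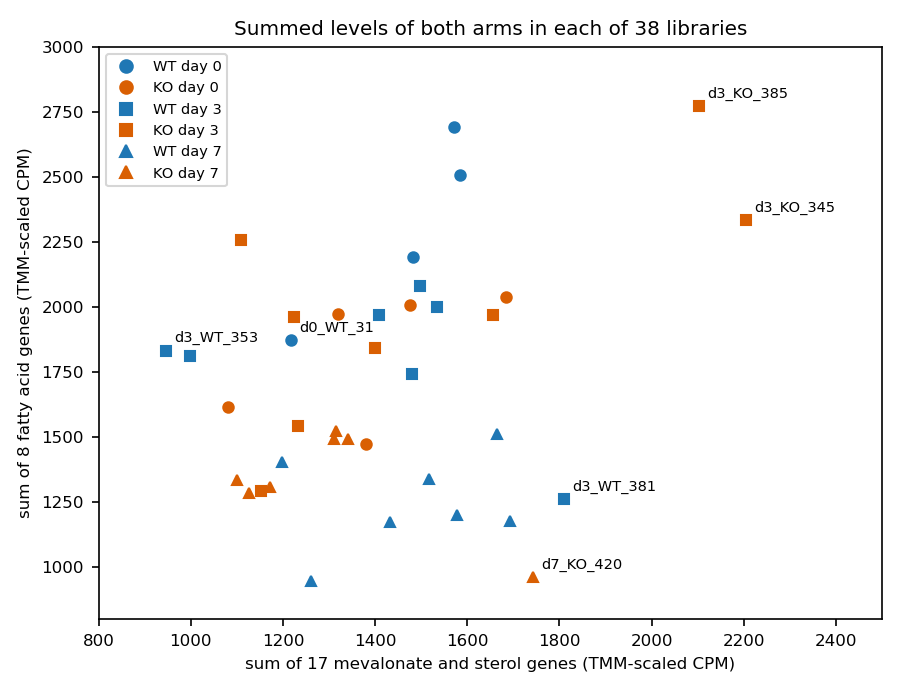
Sum of the 17 sterol-arm genes (horizontal axis) against the sum of the 8 fatty acid genes (vertical axis) in TMM-scaled CPM, 1 point per library, by genotype (WT blue, KO orange) and day (circles day 0, squares day 3, triangles day 7). Day 7 libraries lie between 947 and 1523 CPM on the vertical axis, and 2 KO day 3 libraries, d3_KO_345 and d3_KO_385, lie farthest to the right. Scd2 has the highest mean CPM of the 8 fatty acid genes in each group and weighs most in the vertical axis.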

How the data were processed

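RNA-seq counts from 38 libraries were analysed (4 and 5 untreated WT and KO, 7 and 8 on day 3, 7 and 7 on day 7). The values are raw counts per gene that the authors deposited, 2 lanes per library, made with STAR, Trim Galore and GRCm38 per the submitters' processing notes and with featureCounts 1.6.2, counted without strand, per the file headers (the notes name featureCounts 1.5.2). Lanes were summed (lowest correlation of log counts between lanes 0.989). Totals were 10.5 to 60.6 M counts per library, and p-values judge a group difference against the spread between libraries. No 2 libraries held identical counts.

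The main test was edgeR 4.0.16 (R 4.3.3) quasi-likelihood with TMM scaling and filterByExpr on the libraries compared, fitted on all genes, with Benjamini-Hochberg adjustment and a threshold of 0.05. Fold changes are on the log2 scale. The fits for KO against WT over days 3 and 7 and for the interactions used all groups concerned. CPM was scaled by TMM over all 38 libraries, and RPKM divides it by gene model length. The code was tested on simulated data. Alternatives were DESeq2 size factors, the DESeq2 1.42.0 Wald test, 2 other filters, removal of mitochondrial genes, 1 fit of all 38 libraries and each library left out in turn.

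The members, the gene lists and the tests were chosen with earlier results of these data known. All members are named; full statistics are given for those called or, where fewer than 3 were called, for the 3 with the smallest p. Genes of other lists are named from those called with the largest change, up to 2 per list and direction. Promoter sequences are RefSeq windows for 23 of 29 members. The spans of Cyp51, Fdft1, Srebf1, Acss2, Lss, Mvd, Me1, Acaca and Elovl6, introns included, overlap a gene on the other strand. Those of Fdps, Tm7sf2, Acss2, Me1, Acaca and Elovl6 overlap a gene on the same strand, and those of Srebf1, Srebf2, Acly and Scd2 a microRNA gene there. Whether their exons overlap was not examined, and only reads in shared exons could not be assigned to 1 gene. Scd1 and Scd2 have close relatives.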

Additional observations from a re-analysis of the deposited data

Results flagged for a closer look

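Each member was examined in each of the 6 groups for a highest or lowest library whose gap to the next was large against the range of the group (Dixon's 95% critical values). Of 174 checks, 16 stood apart, and chance gives about 1 in 20 for independent, normally distributed values. The checks reuse the same libraries, and the rate over all genes was not computed, so the count is not read as an excess. Of the 16, 8 came from d7_KO_420 and 3 from d0_WT_31.

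In KO day 7, d7_KO_420 was highest for Insig1 (157 CPM, next 74.2), Pmvk (45.6 CPM, next 36.2), Fdft1 (140 CPM, next 99.4), Lss (127 CPM, next 67.7), Nsdhl (62.6 CPM, next 50.2) and Hsd17b7 (50.4 CPM, next 33.0). It was lowest for Acly (129 CPM, next 238) and Acaca (27.1 CPM, next 41.7). The same library had the highest immune marker sum of its group (1467 CPM) and the lowest proliferation sum (143 CPM), and their part in these levels was not tested.

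In WT day 0, d0_WT_31 was lowest for Msmo1 (129 CPM, next 178) and Acaca (53.5 CPM, next 77.6) and highest for Ebp (82.5 CPM, next 57.6). In WT day 3, d3_WT_346 was highest for Srebf2 (294 CPM, next 235) and d3_WT_381 for Pmvk (49.7 CPM, next 35.2). In KO day 3, d3_KO_351 was lowest for Me1 (9.87 CPM, next 20.2). In WT day 7, d7_WT_393 was highest for Insig1 (145 CPM, next 99.1) and d7_WT_386 for Idi1 (32.9 CPM, next 23.5).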

How the results depend on the processing

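Alternatives were run for the number of members called and for the members called, or the 3 with the smallest p, in each comparison, and none of those fold changes changed sign. Under the alternatives other than leaving out a library, 474 values kept their side of the threshold, 10 lost the call and 2 gained it. With 1 library left out, 1037 values kept it, 65 lost it and 3 gained it. The number of members called stayed within 1.5 times its value, with these exceptions. With the DESeq2 Wald test, 1 member was called for KO against WT on day 0 and 1 for the interaction of day 7 against day 0, where edgeR called 0. Leaving out 1 library gave 0 to 2 members for KO against WT over days 3 and 7 (2 without d7_KO_420) and 0 to 1 for the interaction of day 7 against day 0 (1 without d7_KO_420). With both d3_KO_345 and d7_KO_420 left out, chosen after seeing the data, 0 were called over days 3 and 7. Over the fits without 1 library the number called was 5 to 8 in WT and 5 to 7 in KO for day 7 against day 3, 9 to 11 and 8 to 9 for day 3 against day 0, and 13 to 14 and 13 to 18 for day 7 against day 0. The cause of these changes was not tested. No paired analysis was possible because the groups share no library numbers. Depth was lowest on day 0 (10.5 M counts), and the WT group there has 4 libraries.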
